A study of Mus musculus with 6 samples.

Results

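Chemokines are small secreted or membrane-bound proteins that guide the movement of leukocytes, and chemokine receptors are the G protein-coupled receptors that read them. All rows of the expression table whose gene symbol marks a chemokine ligand or a chemokine receptor by its prefix (Ccl, Cxcl, Cx3c, Xcl, Pf4, Ppbp, Ccr with a digit, Cxcr, Xcr, Ackr, or Ccrl) were taken, with Ccr2 left out. This gave 26 of the 8191 genes in the table, 18 ligands and 8 receptors. The rule reads the gene symbols alone. Of the 61 protein-coding genes of the mouse GENCODE M21 annotation that carry such a symbol, 35 were outside the table and were not analysed here, among them Ccl5, Cxcl1, Cxcl2, Cxcl10, Ccr1, and Cxcr2.

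The genes were measured by mRNA sequencing of myeloid-derived suppressor cells (MDSCs), a mixed population of immature myeloid cells that restrains T cells, from spleens of old BALB/c-background mice that were WT, Tnfr1-/-, or Tnfr2-/-. The knockout mice lack one of the 2 receptors for TNF, TNFR1 or TNFR2, in the whole animal. Old mice were 18 to 24 months of age, and each genotype had 2 samples. A heat map legend of the study gives MDSCs pooled from 5 mice for each experiment, and 2 independent experiments. The sample labels do not say which samples were prepared in the same experiment. Gr1+CD11b+ cells were isolated with a kit and sorted, a step that keeps monocytic and granulocytic MDSCs together, and the comparison asks how loss of either TNF receptor changes aged MDSCs.

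The chemokine system is read by which cells carry which receptor. Inflammatory CC ligands such as Ccl2, Ccl3, and Ccl4 are made by activated myeloid cells and draw monocytes, T cells, and other leukocytes into tissue, whereas homeostatic ligands such as Cxcl12 hold cells in bone marrow and lymphoid organs through receptors such as Cxcr4. TNF is a classical inducer of inflammatory chemokines, and both of its receptors can activate the transcription factor NF-kappaB.

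The table gives FPKM, fragments per kilobase of transcript per unit of sequenced fragments, so levels can be set side by side between genes. Every one of the 8191 genes had a one-way ANOVA p-value under 0.05 over the 3 genotypes when recomputed from its 6 FPKM values. All genes tested below had therefore been picked for a genotype difference before the table was deposited, and the p-values are not independent of that choice. The values of a sample summed to between 344714 and 346870 FPKM in WT and to between 133604 and 155248 FPKM in the knockouts. Values carried up to 10 significant digits in WT and up to 6 in the knockouts. The making of the values and the genotype therefore cannot be told apart in any comparison with WT. The depth behind each value is unknown. Tnfrsf1b, which encodes TNFR2, was at 111.8 and 114.9 FPKM in WT, 47.8 and 69.6 in Tnfr1-/-, and 11.3 and 14.3 in Tnfr2-/- MDSCs, lowest in the samples labelled Tnfr2-/-. Tnfrsf1a, which encodes TNFR1, was not among the listed genes, so the Tnfr1-/- label has no such check here. Of the genes behind the sorting markers, Ptprc (CD45) was between 98.2 and 271.4 FPKM in all samples, whereas Ly6c1, one of the genes behind the Gr1 epitope, was at 0.159 and 0.0638 FPKM in WT and between 95.8 and 178.1 FPKM in the knockouts. Itgam (CD11b), Ly6g, and Ly6c2 were not among the listed genes. In the WT samples Ly6c1 was thus almost absent, and the level of the Gr1 marker as a whole cannot be read from the listed genes.

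Chemokine genes formed a larger part of the summed FPKM of the listed genes in WT than in either knockout. The sums cover only the 8191 listed genes, all picked for a genotype difference, and not all transcripts. The 26 genes together made up 2.227% and 2.222% of the summed FPKM in the WT samples, 0.3388% and 0.4292% in the Tnfr1-/- samples, and 0.4934% and 0.4996% in the Tnfr2-/- samples. Ligands and receptors moved apart. The 18 ligands summed to 7638 and 7671 FPKM in WT, 272.2 and 373.3 in Tnfr1-/-, and 547.8 and 624.2 in Tnfr2-/- MDSCs. The 8 receptors summed to 39.0 and 38.1 FPKM in WT, 183.0 and 200.1 in Tnfr1-/-, and 187.2 and 151.5 in Tnfr2-/- MDSCs. Both sums therefore separated WT from the knockouts without overlap, in opposite directions. The ligand sum was mostly one gene, since Ccl6 alone was between 66.8% and 83.6% of it in every sample.

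**Figure D1:**
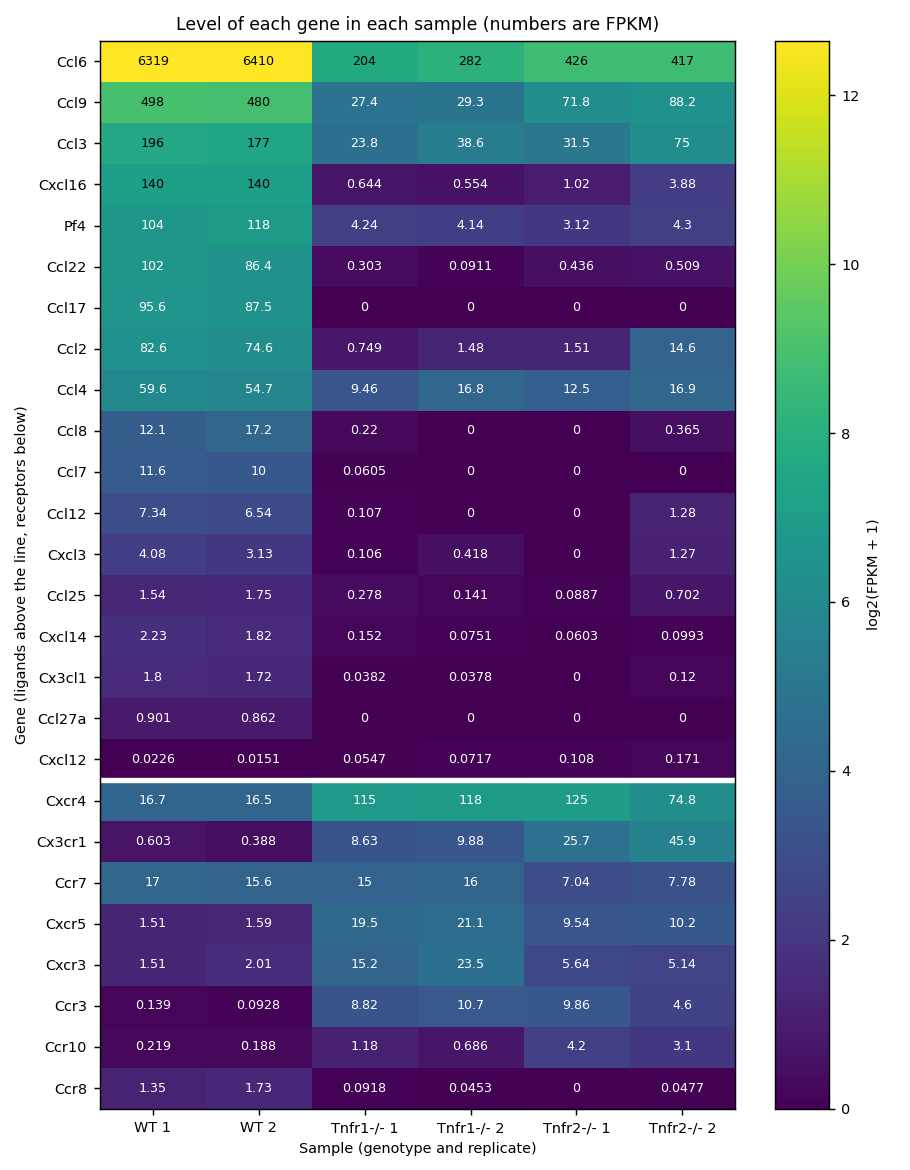
FPKM of each of the 18 ligands and 8 receptors in each of the 6 samples, with the colour on a log2(FPKM + 1) scale and genes ordered by mean level within each kind. Ccl6 is the highest gene in every sample, 17 ligands are darker in the knockouts than in WT, and 6 receptors are brighter.

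In the comparison of Tnfr2-/- with WT MDSCs, 19 of the 26 genes fell and 6 rose by limma (Benjamini-Hochberg adjusted p under 0.05 over all 8191 genes and a fold change over 1.5). Over all genes 57.1% fell and 13.6% rose by the same rule, so most of the table fell too. The split by kind was sharper than the count: 17 of 18 ligands fell and 0 rose (18 had an unadjusted p under 0.05 by limma, as did 94.7% of all genes, with Cxcl12 as the ligand that did not pass the fold rule), whereas 6 of 8 receptors rose and 2 fell. The median change was −2.50 for the ligands and 2.02 for the receptors on the log2(FPKM + 1) scale, against −0.74 for all genes.

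In Tnfr1-/- against WT MDSCs, 18 genes fell and 6 rose, against 60.7% and 14.1% of all genes. Again 17 of 18 ligands fell, while 6 receptors rose, 1 (Ccr8) fell, and 1 (Ccr7) did not pass. The medians were −3.22 for the ligands, 2.76 for the receptors, and −0.83 for all genes. Both comparisons use the same WT samples and are not independent of each other.

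Because the whole table was shifted between WT and the knockouts, the values were also divided by median-ratio size factors, which brought the median change of all genes to −0.03 in both comparisons. On that scale 1787 genes rose and 1717 fell in Tnfr2-/- against WT, in place of 1115 and 4679, and 1908 rose and 1814 fell in Tnfr1-/- against WT, in place of 1151 and 4973. Of the chemokine genes, 6 still rose and 15 fell in Tnfr2-/-, and 7 rose and 16 fell in Tnfr1-/- MDSCs. The ligand medians became −1.67 and −2.56 and the receptor medians 2.49 and 3.51, in the order Tnfr2-/- and Tnfr1-/-. The direction of the group medians was therefore the same with both scalings. The factors assume that most genes are unchanged, yet they came from listed genes that were all picked for a genotype difference. Neither scaling can be taken as the right one here.

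**Figure D2:**
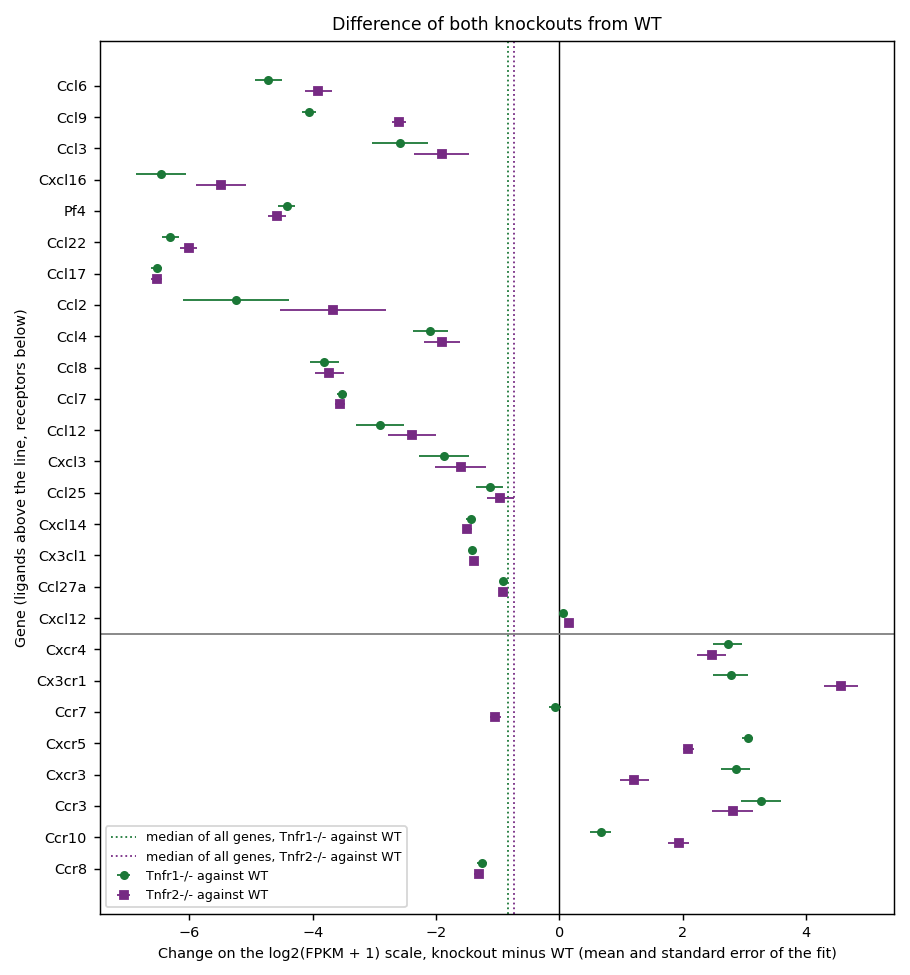
Change of each gene from WT on the log2(FPKM + 1) scale, as the mean and standard error of the limma fit, for Tnfr1-/- (circles) and Tnfr2-/- (squares); dotted lines mark the median of all 8191 genes (−0.83 and −0.74). Ligands except Cxcl12 lie left of 0, and 6 of 8 receptors lie right of 0; for Ccl7, Ccl8, Ccl12, Ccl17, Ccl27a, Cxcl3, Cx3cl1, and Ccr8, which are at 0 in at least 1 knockout sample, the plotted size depends on the value added before the logarithm.

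The inflammatory CC ligands were the largest class, with 8 listed genes (Ccl2, Ccl3, Ccl4, Ccl6, Ccl7, Ccl8, Ccl9, and Ccl12), and all 8 fell in both knockouts. Ccl6 and Ccl9 are rodent CC chemokines made by myeloid cells and are known to act on Ccr1. Ccl6 (chr11:83587882-83593087, GRCm38, minus strand) was at 6319 and 6410 FPKM in WT, 204.5 and 281.6 in Tnfr1-/-, and 425.6 and 416.8 in Tnfr2-/- MDSCs. All knockout samples were far below both WT samples, and the Tnfr2-/- pair lay above the Tnfr1-/- pair. The log2 change from WT was −3.91 ± 0.22 (SE; adjusted p = 0.0001) in Tnfr2-/- and −4.72 ± 0.22 (adjusted p = 5.26e-05) in Tnfr1-/- MDSCs.

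Ccl9 (chr11:83572919-83578636, minus strand), the neighbour of Ccl6, followed the same order of genotypes. Its level was 498.0 and 480.0 FPKM in WT, 27.4 and 29.3 in Tnfr1-/-, and 71.8 and 88.2 in Tnfr2-/- MDSCs, with no overlap between any of the groups. The log2 change was −2.60 ± 0.12 (adjusted p = 5.58e-05) in Tnfr2-/- and −4.06 ± 0.12 (adjusted p = 1.65e-05) in Tnfr1-/- MDSCs.

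Ccl3 and Ccl4, the macrophage inflammatory proteins that attract monocytes and T cells, kept more of their WT level than the other genes of this class. Ccl3 was at 195.7 and 176.6 FPKM in WT, 23.8 and 38.6 in Tnfr1-/-, and 31.5 and 75.0 in Tnfr2-/- MDSCs. The knockout samples overlapped each other and lay below WT. The log2 change of Ccl3 was −1.91 ± 0.45 (adjusted p = 0.0104) in Tnfr2-/- and −2.58 ± 0.45 (adjusted p = 0.00332) in Tnfr1-/- MDSCs. With median-ratio scaling the Tnfr2-/- value became −0.93 with an adjusted p of 0.109, and it missed the adjusted threshold without WT 1 or without WT 2. Ccl4 was at 59.6 and 54.7 FPKM in WT and between 9.46 and 16.9 FPKM in the 4 knockout samples, and it fell by 1.90 in Tnfr2-/- and by 2.09 in Tnfr1-/- on the log2 scale.

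Ccl2, Ccl7, Ccl8, and Ccl12 are the monocyte chemoattractant proteins, which draw monocytes out of bone marrow and blood. Ccl2 was at 82.6 and 74.6 FPKM in WT, 0.749 and 1.48 in Tnfr1-/-, and 1.51 and 14.6 in Tnfr2-/- MDSCs. The second Tnfr2-/- sample was thus well above the other knockout samples and still below WT. The log2 change of Ccl2 was −3.67 ± 0.86 (adjusted p = 0.01) in Tnfr2-/- and −5.25 ± 0.86 (adjusted p = 0.00257) in Tnfr1-/- MDSCs. In Tnfr2-/- it was −4.98 without Tnfr2-/- 2 and −2.35 without Tnfr2-/- 1, and the adjusted threshold was missed without either WT sample. The other 3 genes went from low levels in WT to near 0. Ccl7 was at 11.6 and 10.0 FPKM in WT, 0.0605 and 0 in Tnfr1-/-, and 0 in both Tnfr2-/- samples. Ccl8 was at 12.1 and 17.2 FPKM in WT, 0.220 and 0 in Tnfr1-/-, and 0 and 0.365 in Tnfr2-/- MDSCs. Ccl12 was at 7.34 and 6.54 FPKM in WT, 0.107 and 0 in Tnfr1-/-, and 0 and 1.28 in Tnfr2-/- MDSCs. All 3 passed the test in both knockouts (adjusted p between 9.28e-06 and 0.00276), and no fold change is given for them because samples are listed at 0. Of 11 housekeeping genes in the table, 0 were listed at 0 in any sample. With depth unknown, this does not tell what a 0 means for genes as low as Ccl7, Ccl8, and Ccl12.

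Promoter sequence was available from RefSeq (GRCm38.p6) for 19 of the 26 genes, as the 250 bases before each annotated start. A kappaB motif of the kind NF-kappaB binds, the letters GGG and TTTCC set apart by any 2 bases, was searched on both strands. It occurred in the windows of 3 genes, Ccl9, Cxcl3, and Ccr3, and in 1.41% of all 32851 promoter windows. These windows are shown because the site belongs to the pathway that TNF receptors feed and because the 3 genes did not move alike: Ccl9 and Cxcl3 fell in both knockouts and Ccr3 rose in both. The window of Cxcr4, the receptor with the highest mean level, is added for its TATAAA box, found on the gene strand in 7 of the 19 genes and in 7.59% of all windows. Each runs 5′ to 3′ on the gene strand and ends at the base before the start site, at position −1. Capitals mark the kappaB letters and the TATAAA box (searched on the gene strand), and in Ccl9 and Ccr3 also the AP-1 letters TGANTCA, which 6.75% of all windows hold on either strand. The windows are chr11:83578637-83578886 (minus strand) for Ccl9, chr5:90785851-90786100 (plus strand) for Cxcl3, chr9:124021721-124021970 (plus strand) for Ccr3, and chr1:128592300-128592549 (minus strand) for Cxcr4.
Ccl9: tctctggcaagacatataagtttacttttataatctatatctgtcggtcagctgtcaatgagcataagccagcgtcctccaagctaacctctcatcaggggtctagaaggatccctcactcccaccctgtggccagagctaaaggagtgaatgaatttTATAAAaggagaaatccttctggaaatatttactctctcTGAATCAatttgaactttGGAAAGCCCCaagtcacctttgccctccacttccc
Cxcl3: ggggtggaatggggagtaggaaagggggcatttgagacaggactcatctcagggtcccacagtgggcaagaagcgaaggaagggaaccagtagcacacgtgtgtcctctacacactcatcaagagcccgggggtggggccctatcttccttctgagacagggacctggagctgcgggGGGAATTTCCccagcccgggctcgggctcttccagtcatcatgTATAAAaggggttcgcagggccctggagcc
Ccr3: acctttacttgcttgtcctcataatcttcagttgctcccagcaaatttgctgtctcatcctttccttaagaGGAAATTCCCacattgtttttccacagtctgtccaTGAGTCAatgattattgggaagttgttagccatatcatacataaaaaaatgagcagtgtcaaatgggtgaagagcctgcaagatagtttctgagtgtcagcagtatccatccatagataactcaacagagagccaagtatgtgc
Cxcr4: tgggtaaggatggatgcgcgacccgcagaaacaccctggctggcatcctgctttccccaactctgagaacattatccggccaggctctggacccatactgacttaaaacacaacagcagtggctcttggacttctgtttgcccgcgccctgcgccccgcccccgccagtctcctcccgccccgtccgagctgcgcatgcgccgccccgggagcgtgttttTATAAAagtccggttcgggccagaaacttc
The kappaB letters began at −35 in Ccl9, −73 in Cxcl3, and −179 in Ccr3, on the opposite strand in Ccl9 and Ccr3. The AP-1 letters began at −53 in Ccl9 and −144 in Ccr3, and the TATAAA box at −92 in Ccl9 and at −30 in both Cxcl3 and Cxcr4. The motifs did not overlap each other in these windows. A match of letters is a description of the window and not a bound site.

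Ccl17 and Ccl22, the ligands of Ccr4 that dendritic cells and macrophages use to attract T cells, were among the deepest falls. Ccl17 (chr8:94810453-94812036, plus strand) was at 95.6 and 87.5 FPKM in WT and was listed at 0 in all 4 knockout samples, so no fold is given (adjusted p = 5.35e-06 against WT in Tnfr2-/- and 5.13e-06 in Tnfr1-/-). Ccl22 (chr8:94745590-94751699, plus strand) was at 101.9 and 86.4 FPKM in WT, 0.303 and 0.0911 in Tnfr1-/-, and 0.436 and 0.509 in Tnfr2-/- MDSCs. Its log2 change was −6.01 ± 0.14 (adjusted p = 1.03e-05) in Tnfr2-/- and −6.31 ± 0.14 (adjusted p = 8.53e-06) in Tnfr1-/- MDSCs. A gene near 90 FPKM in WT was thus almost or wholly missing in every knockout sample.

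The other CC ligands of this class were low throughout. Ccl25, which guides cells to thymus and gut, was at 1.54 and 1.75 FPKM in WT and between 0.0887 and 0.702 FPKM in the knockouts. It fell in both comparisons as deposited, but with median-ratio scaling its adjusted p was 0.12 in Tnfr2-/- and 0.0579 in Tnfr1-/- MDSCs. Ccl27a was at 0.901 and 0.862 FPKM in WT and was listed at 0 in all 4 knockout samples. Of the 50-base windows of the Ccl27a transcripts 45.0% also occur in other annotated genes, so reads may have been split between copies and its level is uncertain.

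Cxcl16, a membrane-bound ligand of Cxcr6 that also takes up oxidised lipoprotein, had with Ccl22 the deepest falls among the ligands with values above 0 in every sample. Cxcl16 (chr11:70453983-70459984, minus strand) was at 140.3 and 140.0 FPKM in WT, 0.644 and 0.554 in Tnfr1-/-, and 1.02 and 3.88 in Tnfr2-/- MDSCs. The log2 change was −5.49 ± 0.41 (adjusted p = 0.00023) in Tnfr2-/- and −6.46 ± 0.41 (adjusted p = 0.000124) in Tnfr1-/- MDSCs. In Tnfr2-/- it was −6.13 without Tnfr2-/- 2 and −4.85 without Tnfr2-/- 1. Cxcl16 overlaps Zmynd15 on the opposite strand, and 16.9% of its 50-base windows also occur in another gene.

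Pf4, platelet factor 4, is a CXC chemokine stored in platelet granules and made by megakaryocytes. Pf4 (chr5:90772435-90773383, plus strand) was at 103.6 and 117.7 FPKM in WT, 4.24 and 4.14 in Tnfr1-/-, and 3.12 and 4.30 in Tnfr2-/- MDSCs. The log2 change was −4.58 ± 0.14 (adjusted p = 2.01e-05) in Tnfr2-/- and −4.42 ± 0.14 (adjusted p = 2.06e-05) in Tnfr1-/- MDSCs. Of the 3 listed markers of megakaryocytes and platelets, Clec1b was at 92.3 and 86.5 FPKM in WT and between 0.525 and 2.26 FPKM in the knockouts, and Vwf was at 25.6 and 24.6 FPKM in WT and between 0.272 and 0.449 FPKM in the knockouts. The third, Tubb1, a tubulin of platelets, went the other way at a low level, from 0.269 and 0.135 FPKM in WT to between 0.537 and 1.04 FPKM in the knockouts. The part of platelets in the Pf4 difference was not tested, and in bulk samples fewer cells of a type and less RNA per cell cannot be told apart.

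Of the remaining ligands, Cxcl3, Cxcl14, and Cx3cl1 fell from low WT levels and Cxcl12 stayed under 0.2 FPKM. Cxcl3, which draws neutrophils through Cxcr2, was at 4.08 and 3.13 FPKM in WT, 0.106 and 0.418 in Tnfr1-/-, and 0 and 1.27 in Tnfr2-/- MDSCs. With median-ratio scaling its adjusted p was 0.1 in Tnfr2-/- and 0.0564 in Tnfr1-/- MDSCs, which missed the threshold. Cxcl14 was at 2.23 and 1.82 FPKM in WT and between 0.0603 and 0.152 FPKM in the knockouts. Cx3cl1, the membrane-bound ligand of Cx3cr1, was at 1.80 and 1.72 FPKM in WT and between 0 and 0.12 FPKM in the knockouts. Cxcl12, the ligand of Cxcr4 made by stromal cells, was between 0.0151 and 0.171 FPKM in the 6 samples. Its change from WT was 0.16 in Tnfr2-/- and 0.06 in Tnfr1-/- on the log2(FPKM + 1) scale, under the 1.5-fold rule. With a pseudocount of 0.1 the change in Tnfr2-/- was 1.00 (adjusted p = 0.00207 by limma), and Cxcl12 passed as a rise. Whether it passes in Tnfr2-/- thus depends on the value added.

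Among the receptors, Cxcr4, which holds neutrophils and their precursors in bone marrow, was the highest in the knockouts. Cxcr4 (chr1:128588199-128592293, minus strand) was at 16.7 and 16.5 FPKM in WT, 114.6 and 118.0 in Tnfr1-/-, and 125.2 and 74.8 in Tnfr2-/- MDSCs. All knockout samples were above WT, and the Tnfr2-/- pair spanned the Tnfr1-/- pair. The log2 change was 2.47 ± 0.24 (adjusted p = 0.000515) in Tnfr2-/- and 2.73 ± 0.24 (adjusted p = 0.000328) in Tnfr1-/- MDSCs.

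Cx3cr1, the fractalkine receptor that is high on patrolling monocytes and many tissue macrophages, had the largest rise in Tnfr2-/- MDSCs among the 26 genes. It was at 0.603 and 0.388 FPKM in WT, 8.63 and 9.88 in Tnfr1-/-, and 25.7 and 45.9 in Tnfr2-/- MDSCs, so the 3 genotypes did not overlap. The log2 change from WT was 4.57 ± 0.28 (adjusted p = 0.000128) in Tnfr2-/- and 2.78 ± 0.28 (adjusted p = 0.000503) in Tnfr1-/- MDSCs. In GENCODE M21 the annotated span of Cx3cr1 (chr9:119901616-120069879, minus strand) overlaps other genes on both strands, which limits this value.

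Ccr3, the eotaxin receptor carried by eosinophils and basophils, was near 0 in WT and present in every knockout sample. Ccr3 (chr9:124021972-124031689, plus strand) was at 0.139 and 0.0928 FPKM in WT, 8.82 and 10.7 in Tnfr1-/-, and 9.86 and 4.60 in Tnfr2-/- MDSCs. The log2 change was 2.81 ± 0.33 (adjusted p = 0.000878) in Tnfr2-/- and 3.27 ± 0.33 (adjusted p = 0.000468) in Tnfr1-/- MDSCs. Most of the table fell in both knockouts, 57.1% of genes in Tnfr2-/- and 60.7% in Tnfr1-/-. The markers of eosinophils, basophils, and mast cells also went the other way from Ccr3, with 9 of 10 listed. Of these, 9 fell in Tnfr2-/- and 8 in Tnfr1-/- MDSCs (7 and 5 with median-ratio scaling). Ear2, an eosinophil-associated ribonuclease, made up most of their sum, at 2417 and 2560 FPKM in WT and between 41.55 and 74.05 FPKM in the knockouts, and the other 8 summed to 84.0 and 82.5 FPKM in WT and to between 4.47 and 24.4 FPKM in the knockouts. Siglecf was at 19.7 and 18.8 FPKM in WT and between 3.04 and 5.23 FPKM in the knockouts, and Epx was listed at 0 in both Tnfr2-/- samples.

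Cxcr5 and Cxcr3 are receptors of lymphocytes: Cxcr5 takes B cells and follicular T cells into follicles, and Cxcr3 marks activated T cells and NK cells. Cxcr5 was at 1.51 and 1.59 FPKM in WT, 19.5 and 21.1 in Tnfr1-/-, and 9.54 and 10.2 in Tnfr2-/- MDSCs. Cxcr3 was at 1.51 and 2.01 FPKM in WT, 15.2 and 23.5 in Tnfr1-/-, and 5.64 and 5.14 in Tnfr2-/- MDSCs. Both genes were thus highest in Tnfr1-/-, intermediate in Tnfr2-/-, and lowest in WT, without overlap. The log2 change from WT was 2.09 ± 0.09 (adjusted p = 4.36e-05) for Cxcr5 in Tnfr2-/- and 3.06 ± 0.09 (adjusted p = 1.58e-05) in Tnfr1-/- MDSCs. For Cxcr3 it was 1.22 ± 0.23 (adjusted p = 0.00448) in Tnfr2-/- and 2.86 ± 0.23 (adjusted p = 0.000231) in Tnfr1-/- MDSCs.

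Ccr10, a receptor of skin-homing T cells and of plasma cells, rose from a WT level of 0.219 and 0.188 FPKM to 1.18 and 0.686 in Tnfr1-/- and to 4.20 and 3.10 in Tnfr2-/- MDSCs. The log2 change was 1.94 ± 0.17 (adjusted p = 0.000332) in Tnfr2-/- and 0.67 ± 0.17 (adjusted p = 0.0114) in Tnfr1-/- MDSCs. The Tnfr1-/- call was lost without Tnfr1-/- 1, without WT 1, or without WT 2. The Ccr10 gene overlaps Cntnap1 on the opposite strand.

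The remaining 2 receptors, Ccr8 and Ccr7, did not rise in FPKM as deposited. Ccr8, a receptor of regulatory and type 2 helper T cells, was at 1.35 and 1.73 FPKM in WT and between 0 and 0.0918 FPKM in the knockouts, and fell in both.

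Ccr7, the receptor that brings dendritic cells and naive T cells into lymph nodes, was the receptor whose reading depended most on scaling. It was at 17.0 and 15.6 FPKM in WT, 15.0 and 16.0 in Tnfr1-/-, and 7.04 and 7.78 in Tnfr2-/- MDSCs. As deposited, WT and Tnfr1-/- overlapped (log2 change −0.07 ± 0.09, adjusted p = 0.499), and Tnfr2-/- lay below both (−1.04 ± 0.09 against WT, adjusted p = 0.00034). With median-ratio scaling the change from WT was −0.13 (adjusted p = 0.25) in Tnfr2-/- and 1.00 (adjusted p = 0.000354) in Tnfr1-/- MDSCs. The direction against WT is therefore not fixed by these data, whereas the order of the knockouts was the same with both scalings.

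Ligand genes that lie near each other on a chromosome moved together. The 8 inflammatory CC ligands lie at the ends of a stretch of 1629.1 kb (chr11:82035571-83664683), and all 8 fell in both knockouts. Ccl2, Ccl7, Ccl12, and Ccl8 start within 79.61 kb of its first base. Ccl9, Ccl6, Ccl3, and Ccl4 start between 1543.07 and 1627.01 kb from it. Ccl22, Cx3cl1, and Ccl17 lie within 66.4 kb (chr8:94745590-94812036), and all 3 fell. On chromosome 9, Cx3cr1 rose and its neighbour Ccr8 fell. Pf4 and Cxcl3, within 17.2 kb on chromosome 5, both fell. Since most ligands and most listed genes fell, shared direction within a ligand cluster is a description only.

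**Figure D3:**
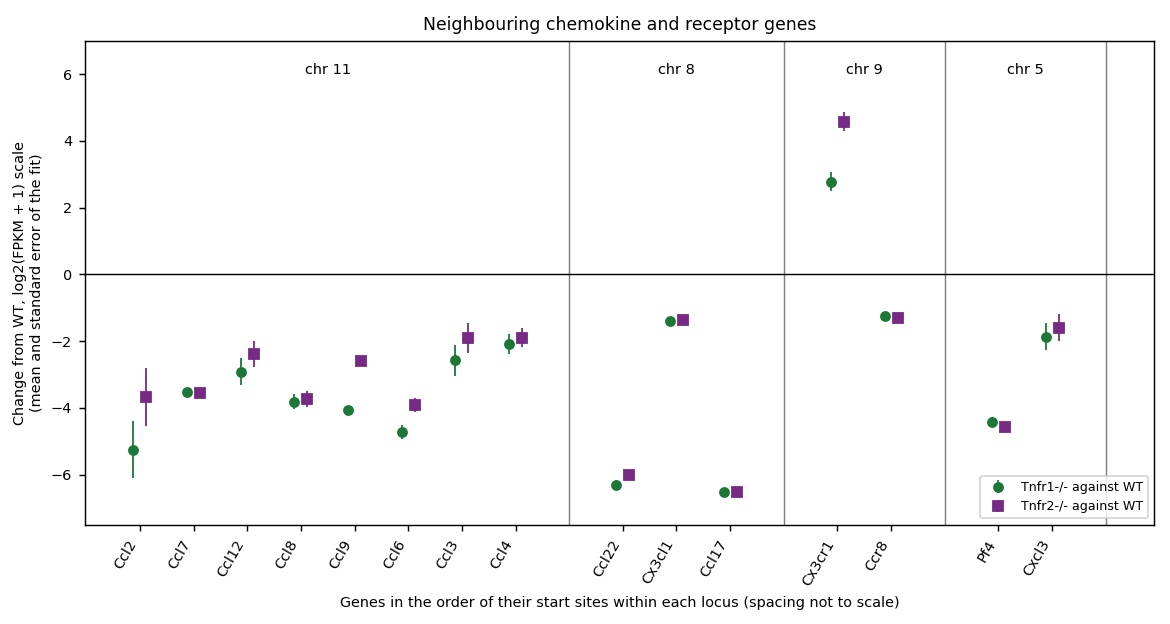
Change from WT on the log2(FPKM + 1) scale (mean and standard error of the fit) for the chemokine and receptor genes of 4 loci, in chromosome order and not to scale, in Tnfr1-/- (circles) and Tnfr2-/- (squares). All 8 genes of the chromosome 11 stretch, which sit in separate groups at its ends, lie below 0, and the chromosome 9 pair has 1 gene above and 1 below 0.

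The knockouts were compared with each other without the WT level in the difference itself. The WT samples do enter the estimate of the spread, also through the mean level of each gene, on which the eBayes trend depends. In Tnfr2-/- against Tnfr1-/- MDSCs, Ccl9 and Ccr10 were higher and Ccr7, Cxcr3, and Cxcr5 were lower. These 2 higher and 3 lower genes of 26 compare with 0.842% and 0.61% of all genes. The remaining 21 genes did not pass, and 8 of the 26 had an unadjusted p under 0.05, as did 1962 of the 8191 genes. The median change was 0.09 for the 26 genes and 0.06 for all genes. For 11 of the 26 genes the 2 samples of one knockout lay entirely on one side of the other, as they did for 51.0% of all genes.

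Ccl9 was higher in Tnfr2-/- by 1.46 ± 0.12 on the log2 scale (adjusted p = 0.0255 by limma, range 0.0106 to 0.153). Its levels were 71.8 and 88.2 against 27.4 and 29.3 FPKM. The ranges in this paragraph are over the alternatives other than leaving out a sample. Ccr10 was higher by 1.27 ± 0.17 (adjusted p = 0.0397, range 0.0201 to 0.173). Cxcr3 was lower in Tnfr2-/-, with a change of −1.64 ± 0.23 (adjusted p = 0.0407, range 0.0201 to 0.165). Cxcr5 changed by −0.97 ± 0.09 (adjusted p = 0.0299, range 0.0122 to 0.153). Ccr7 changed by −0.97 ± 0.09 (adjusted p = 0.0299, range 0.0113 to 0.153). All 5 passed with both other scalings. The calls were lost when any of WT 1, WT 2, Tnfr1-/- 1, Tnfr1-/- 2, or Tnfr2-/- 2 was left out, but not without Tnfr2-/- 1. Such a fit leaves 1 sample in a group.

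Cx3cr1 and Ccl6 had larger levels in Tnfr2-/- than in Tnfr1-/- MDSCs but did not pass. The difference was 1.79 ± 0.28 (adjusted p = 0.0517) for Cx3cr1, which passed with median-ratio scaling (adjusted p = 0.0334), and 0.81 ± 0.22 (adjusted p = 0.122) for Ccl6. Ccl2 differed by 1.59 ± 0.86 (adjusted p = 0.337), with the spread of its Tnfr2-/- pair. Ccl3, Ccl4, Cxcr4, Ccr3, and Pf4 had overlapping samples in the 2 knockouts, which does not show that they were equal.

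**Figure D4:**
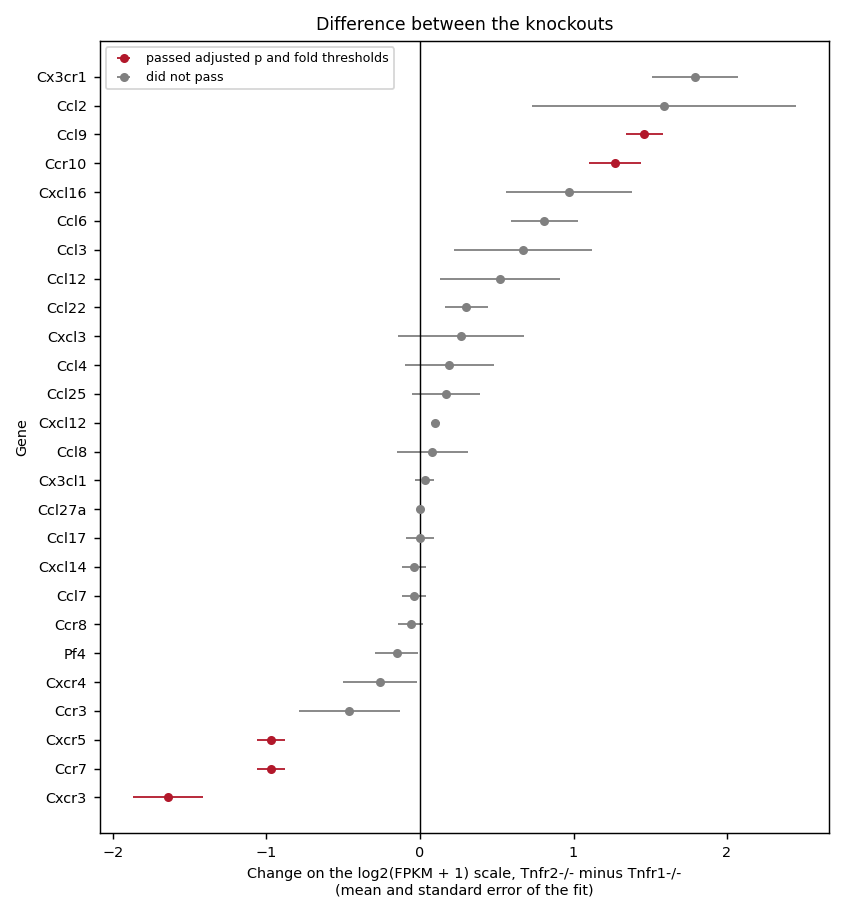
Difference between the knockouts for each of the 26 genes on the log2(FPKM + 1) scale, Tnfr2-/- minus Tnfr1-/-, as the mean and standard error of the fit, ordered by size. The 5 genes in red passed the thresholds: Ccl9 and Ccr10 lie right of 0, and Cxcr5, Ccr7, and Cxcr3 lie left of 0.

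Cx3cl1, Cxcl12, and Ccl27a were each set beside a known receptor. Other pairs among the listed genes were not set out, so no common direction of pairs can be read from these. Ccl8 and Ccr8, for example, both fell in both knockouts. Cx3cl1 fell and its receptor Cx3cr1 rose in both knockouts. Cxcl12 was under 0.2 FPKM in every sample while its receptor Cxcr4 rose, and Ccl27a was listed at 0 in the knockouts while its receptor Ccr10 rose. The receptors Ccr1, Ccr4, Cxcr2, and Cxcr6, which read Ccl6 and Ccl9, Ccl17 and Ccl22, Cxcl3, and Cxcl16, were outside the table and were not analysed here.

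Downstream of the receptors, 34 of 63 genes of a chemokine signalling list (G protein subunits, arrestins, RGS proteins, kinases, and small GTPases) were listed. In Tnfr2-/- against WT MDSCs 21 rose and 8 fell, with a median change of 0.80, and in Tnfr1-/- 16 rose and 8 fell, with a median of 0.57. Over all genes 13.6% rose and 57.1% fell in Tnfr2-/-, and 14.1% and 60.7% in Tnfr1-/-. With median-ratio scaling 26 of the 34 rose and 1 fell in each. On that scale 1787 of 8191 genes rose and 1717 fell in Tnfr2-/-, and 1908 and 1814 in Tnfr1-/-. Cdc42, the GTPase that sets cell polarity during migration, was at 43.6 and 43.8 FPKM in WT, 183.7 and 188.5 in Tnfr1-/-, and 233.4 and 229.8 in Tnfr2-/- MDSCs, a log2 change of 2.38 ± 0.07 in Tnfr2-/- (adjusted p = 1.78e-05). Rgs2, which shortens G protein signals, rose by 2.63 ± 0.17, and Rasgrp2, an activator of Rap1, rose by 2.34 ± 0.10. The deepest falls were in Rgs1 (−1.96 ± 0.44), Prkcd (−1.94 ± 0.08), and Plcb3 (−1.46 ± 0.09), and on the median-ratio scale these were −1.0, −0.96, and −0.55. Between the knockouts 0 of the 34 genes passed by limma, with 14 at an unadjusted p under 0.05 and 1 lower with median-ratio scaling.

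Markers of the cells that express these genes moved with genotype as well, and their part in the chemokine differences was not tested. The marker counts here and in the next paragraph stand beside these shares of all genes. In Tnfr2-/- 57.1% fell and 13.6% rose, and in Tnfr1-/- 60.7% fell and 14.1% rose. With median-ratio scaling 1717 of 8191 genes fell and 1787 rose in Tnfr2-/-, and 1814 and 1908 in Tnfr1-/-. Macrophage markers (18 of 21 listed) summed to 4530 and 4690 FPKM in WT and to between 387 and 583 FPKM in the knockouts. Of these, 16 were lower in Tnfr2-/- and 17 in Tnfr1-/-, the direction of the CC ligands and also of most listed genes. Cd163 rose in both, from 0.347 and 0.359 FPKM in WT to between 1.67 and 2.38 FPKM in the knockouts. With median-ratio scaling 13 were lower in Tnfr2-/- and 12 in Tnfr1-/-, and 1 was higher in each. Dendritic cell markers (8 of 10 listed) summed to 291 and 282 FPKM in WT and to between 25.7 and 50.6 FPKM in the knockouts, beside Ccl17 and Ccl22, with 4 lower and 2 higher in Tnfr2-/- and 6 lower and 2 higher in Tnfr1-/-. Itgax made up most of that sum, and with median-ratio scaling 2 were lower and 2 higher in Tnfr2-/- (median change −0.07 in place of −0.84) and 4 lower and 2 higher in Tnfr1-/-. Of the megakaryocyte and platelet markers (3 of 12 listed), given beside Pf4, Clec1b and Vwf fell in both knockouts and Tubb1 rose in Tnfr2-/- (0.76 ± 0.09, adjusted p = 0.000893) and did not pass in Tnfr1-/- (0.46 ± 0.09, adjusted p = 0.00448).

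Neutrophil markers (4 of 17 listed) went up with Cxcr4: they summed to 40.0 and 32.8 FPKM in WT and to between 1730 and 3450 FPKM in the knockouts, and all 4 rose in both. Of the monocyte markers (6 of 11 listed) 5 rose in Tnfr2-/- and 4 in Tnfr1-/- and Chil3 fell in each. Chil3 was at 2877 and 3066 FPKM in WT and between 115.6 and 375.0 FPKM in the knockouts, and the other 5 summed to 31.6 and 33.2 FPKM in WT and to between 365 and 559 FPKM in the knockouts. B and plasma cell markers (7 of 14 listed) summed to 215 and 250 FPKM in WT, 1870 and 1230 in Tnfr1-/-, and 2370 and 2350 in Tnfr2-/- MDSCs, and all 7 rose in both knockouts, as Cxcr5 did. Jchain, the joining chain of secreted antibodies, made up most of these sums, and without it the other 6 summed to 50.3 and 51.9 FPKM in WT, 426 and 350 in Tnfr1-/-, and 188 and 319 in Tnfr2-/- MDSCs. Between the knockouts 0 of the 7 passed by limma: these 6 had a negative change in Tnfr2-/-, 4 of them with an unadjusted p under 0.05, and Jchain had a positive one (0.90 ± 0.29, adjusted p = 0.158). Of the T and NK cell markers (4 of 16 listed), Cd4 fell from 24.2 and 25.7 FPKM in WT to between 3.86 and 4.89 FPKM in the knockouts, while Cd3d, Cd3g, and Cd5 rose in Tnfr1-/- and Cd3d rose in Tnfr2-/-. Cd3d, Cd3g, and Cd5 summed to 11.9 and 15.0 FPKM in WT, 38.4 and 46.4 in Tnfr1-/-, and 21.4 and 18.2 in Tnfr2-/- MDSCs, and all 4 markers had a negative change in Tnfr2-/- against Tnfr1-/-, with Cd5 as the 1 that passed. The single listed erythroid marker of 10, Epor, and the stromal and endothelial markers (3 of 14 listed, Pdpn, Ltbr, and Bst1) fell in both knockouts, but with median-ratio scaling only Pdpn of these 3 did, and Ltbr had a change of 0.13 in Tnfr2-/-. None of the listed markers of these lists was at 0 in any sample except Epx.

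**Figure D5:**
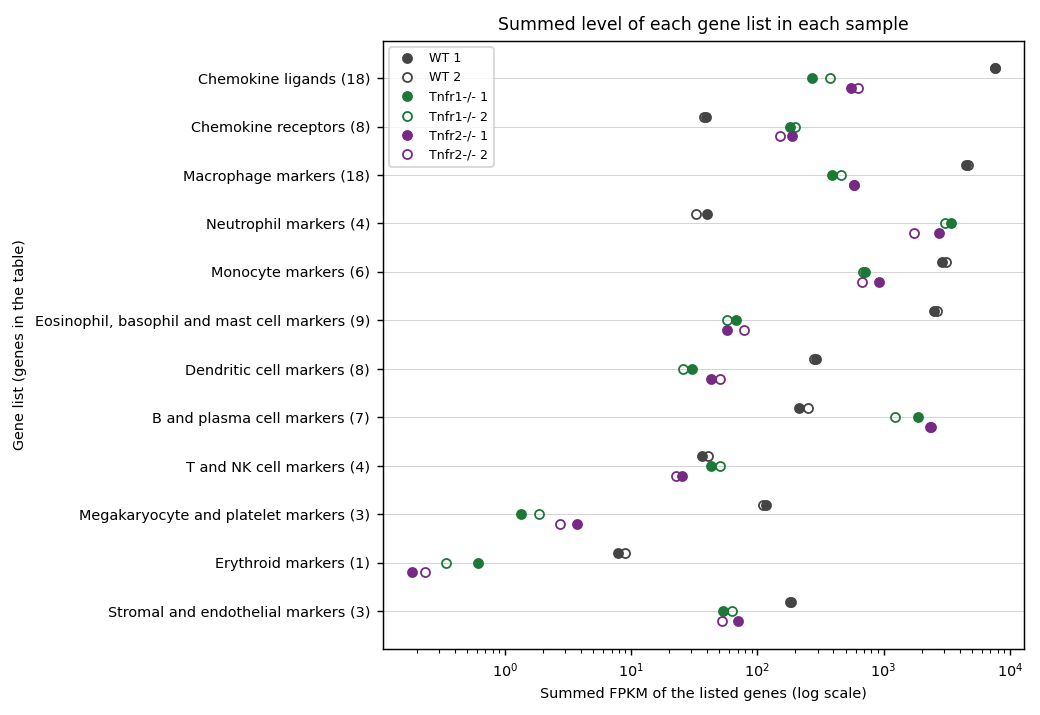
Summed FPKM of the 18 ligands, the 8 receptors, and each list of cell type markers in the 6 samples, on a log axis, with the number of listed genes in brackets; filled and open points are the first and second sample of a genotype. The ligand sum and the macrophage, monocyte, eosinophil, dendritic cell, platelet, erythroid, and stromal sums are highest in WT. The receptor, neutrophil, and B cell sums are highest in the knockouts. Chil3 makes up most of the monocyte sum in WT, and the T and NK cell sum of WT lies between those of the knockouts.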

How the data were processed

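Splenic MDSCs of aged mice were profiled by RNA-seq in 6 samples, 2 of each genotype. RNA was made into libraries with a SMARTER kit and sequenced as single-end reads of 50 bases. Per the labels, FastQC, edgeR, and the mm10 genome were used, and the aligner and the tool that made the FPKM values are not given in the sources used here. The authors deposited FPKM values of 8191 genes and a p-value per gene, the latter not used. Because FPKM are not counts, edgeR was not run, and depth is unknown.

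The 26 genes and the gene lists were chosen with earlier results of these data known. A listed gene that fits the naming rule is not reported here, and all counts, sums and medians leave it out. Values were analysed as log2(FPKM + 1) with limma 3.58.1 in R 4.3.3 (1 model of 6 samples, eBayes with trend, two-sided, Benjamini-Hochberg over 8191 genes) and called at an adjusted p under 0.05 and a fold over 1.5, the study's thresholds. Fold changes are on the log2(FPKM + 1) scale, which understates low genes. For 2 against 2 samples the smallest two-sided exact p is 0.333. Replicates are pools of mice, and p-values measure the spread between these pools. Genes described in full were the 5 with the highest mean FPKM, the 4 largest called rises and falls without overlap of samples against WT in each knockout, and all genes called between the knockouts, and of the signalling list the 3 largest rises and falls in Tnfr2-/-; the other genes are given by level. Markers of macrophages, neutrophils, monocytes, eosinophils with basophils and mast cells, dendritic cells, B and plasma cells, T and NK cells, megakaryocytes and platelets, erythroid cells, and stromal and endothelial cells were looked up.

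Alternatives were a pseudocount of 0.1, a filter at a mean of 1 FPKM, median-ratio size factors, quantile normalization, only the 2 groups compared, a replicate block, a fit without the eBayes trend, no fold threshold, and each sample left out. Adjustment as for all 21951 protein-coding genes was added after the results were seen. The model was tested on simulated data. Positions and shared 50-base windows come from GENCODE M21 (GRCm38) and promoters from RefSeq (GRCm38.p6). Python 3.11.15, NumPy 2.4.6, SciPy 1.17.1, pandas 2.3.3, and matplotlib 3.10.9 were used.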

Additional observations from a re-analysis of the deposited data

Results flagged for a closer look

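The effects of the 2 knockouts against WT differed by the test of the difference itself for 5 genes, which is the direct comparison of Tnfr2-/- with Tnfr1-/- MDSCs by limma. The difference in log2 change was 1.46 for Ccl9 and 1.27 for Ccr10, both higher in both Tnfr2-/- samples than in either Tnfr1-/- sample. It was −1.64 for Cxcr3, −0.97 for Cxcr5, and −0.97 for Ccr7, all lower in both Tnfr2-/- samples. Groups of 2 samples are too small to test for a single outlying sample.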

How the results depend on the processing

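Against WT, the counts of chemokine genes that rose or fell stayed within 1.5 times in all 60 values tried, for both knockouts. Among the genes described in full, the calls against WT that were lost were Ccl3 and Ccr7 in Tnfr2-/- with median-ratio or quantile scaling, Ccl2 and Ccl3 in Tnfr2-/- without either WT sample, and Ccr10 in Tnfr1-/- without either WT sample or without Tnfr1-/- 1. Between the knockouts the counts of 2 higher and 3 lower genes were less stable. With a pseudocount of 0.1 there was 1 higher gene, and without trend in eBayes 0 higher and 1 lower. With only the 2 groups in the fit, with the replicate number as a block, and with the adjustment for all protein-coding genes (added after seeing the data) there were 0 higher and 0 lower genes by limma. In these fits between 4 and 5 genes had an unadjusted p under 0.05 in the higher direction and 3 in the lower. Leaving out single samples gave 0 to 6 higher and 0 to 5 lower genes, with fewer samples in each such fit. The median change of the 26 genes between the knockouts was between −0.01 and 0.22 when samples were left out, and it turned negative (−0.01) without Tnfr2-/- 2. The cause was not tested. Same-numbered samples did not deviate together (correlations 0.022, 0.03, and 0.046), and the labels do not tie a number to either of the 2 independent experiments. The block changed no call against WT. The medians against WT depended on the value added, at −3.30 in Tnfr2-/- and −3.31 in Tnfr1-/- with a pseudocount of 0.1 in place of −1.54 and −1.66. Depth is unknown, so what a value of 0 allows cannot be given.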
